A study of Homo sapiens with 2 samples.

Results

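Mitochondrial ribosomal protein genes, whose symbols begin with MRPL or MRPS, were measured on Affymetrix Human Genome U133 Plus 2.0 arrays in 2 human melanoma cell lines. IGR37 is a line from a lymph node metastasis, and IGR39 is a line from an achromic primary cutaneous tumour. Both lines are established cultures without a labelled treatment, and both were kept in DMEM with serum. Total RNA of each line was labelled with biotin and hybridised to 1 array, so no value has a replicate and no test between the lines was possible. The genes were picked by name and not by value, though the family was chosen with earlier results of these data known. A probe set had to carry a single gene symbol in the platform annotation, beginning with MRPL or MRPS and a digit. The rule found 142 of the 41091 probe sets with a single symbol, and these belonged to 77 of 19775 genes. Where a gene had several probe sets, the one with the highest mean of the 2 arrays gave its value. Levels are on the log2 scale, and each difference is the level in IGR37 minus the level in IGR39, so that 1 is 2-fold.

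The mitochondrial ribosome sits in the mitochondrial matrix and translates the messenger RNAs encoded by the mitochondrial genome, which specify core subunits of the respiratory chain and the ATP synthase. Its ribosomal RNAs come from the mitochondrial genome, but all its proteins are encoded in the nucleus, made in the cytosol and imported. Part of these proteins have counterparts in bacterial ribosomes, and the rest exist only in mitochondrial ribosomes.

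Of the 77 genes, 75 encode proteins, 48 of them with an MRPL symbol (large subunit) and 27 with an MRPS symbol (small subunit). The other two were an antisense RNA and a pseudogene. MRPL20-AS1, the antisense RNA, had a level of 6.38 in IGR37 and 6.06 in IGR39. The pseudogene MRPL45P2 had a level of 2.85 in IGR37 and 2.88 in IGR39, and it was the single member whose mean over both arrays lay under the level minimum of 6. The other 76 genes had a level of at least 6 in both lines, so the set held no gene that was measurable in only 1 line. MRPL53 and MRPS24 had no value, because their probe sets carry several symbols.

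The labelled cell type was checked against marker genes. All 7 measured melanocyte lineage markers were higher in IGR37, by 4.25 to 9.90. PMEL, a structural protein of pigment granules, had a level of 12.47 in IGR37 and 4.29 in IGR39. MITF, the transcription factor of the lineage, had 11.81 in IGR37 and 7.57 in IGR39. SOX10 was at 4.10 and MLANA at 3.33 in IGR39, so these defining markers were near background in the line from the primary tumour. Of 4 markers described in invasive melanoma cells, 3 were lower in IGR37. The receptor AXL had 3.68 in IGR37 and 11.24 in IGR39. WNT5A had 3.74 in IGR37 and 8.60 in IGR39, and EGFR had 4.91 in IGR37 and 9.19 in IGR39. The remaining marker, NGFR, had 3.76 in IGR37 and 3.69 in IGR39, near background in both lines. None of the 7 measured lymphocyte and macrophage markers and none of the 3 keratinocyte markers reached a mean of 6. Of the 5 fibroblast markers, 1 did. LUM had 6.26 in IGR37 and 3.41 in IGR39, COL1A2 had 3.84 in IGR37 and 6.27 in IGR39, and COL1A1 had 6.15 in IGR37 and 5.87 in IGR39. The part of fibroblasts in the members' values was not tested. Hybridisation spike-ins differed between the arrays by a median of 0.02 (SD 0.08 over 18 probe sets). The poly-A spike-ins, controls that go through the labelling together with the sample, had a median difference of 0.25 (SD 0.31, 24 probe sets, none with a level above 6.37).

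Start regions are shown for the 4 members with the highest and the 4 with the lowest differences described below, so that both ends of the family can be read side by side. They were picked by that rule from the members with a promoter entry, whether or not they held a motif. Each runs 5′ to 3′ from 100 bases before to 30 bases after the RefSeq transcription start in GRCh38.p14. Capitals mark, on either strand, the ETS letters CCGGAAG, the YY1 letters AAGATGGCG, the NRF1 letters GCATGCGC and the E-box letters CACGTG and CATGTG.
MRPS25, chr3:15065286-15065415, minus strand: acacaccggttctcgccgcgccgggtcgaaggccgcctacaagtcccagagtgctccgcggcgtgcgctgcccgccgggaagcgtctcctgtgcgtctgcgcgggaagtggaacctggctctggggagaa
MRPL46, chr15:88467359-88467488, minus strand: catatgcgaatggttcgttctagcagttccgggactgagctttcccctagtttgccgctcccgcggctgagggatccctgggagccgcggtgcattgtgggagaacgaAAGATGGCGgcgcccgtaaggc
MRPL39, chr21:25607452-25607581, minus strand: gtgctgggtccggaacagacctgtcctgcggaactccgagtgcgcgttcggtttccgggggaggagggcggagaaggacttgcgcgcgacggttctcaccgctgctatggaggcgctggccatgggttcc
MRPL44, chr2:223957363-223957492, plus strand: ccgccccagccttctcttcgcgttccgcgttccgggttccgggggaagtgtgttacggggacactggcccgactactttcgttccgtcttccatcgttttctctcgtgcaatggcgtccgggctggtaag
MRPS16, chr10:73252615-73252744, minus strand: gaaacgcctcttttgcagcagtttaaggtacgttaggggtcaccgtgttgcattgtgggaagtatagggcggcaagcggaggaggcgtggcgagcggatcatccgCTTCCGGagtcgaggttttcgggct
MRPL43, chr10:100987468-100987597, minus strand: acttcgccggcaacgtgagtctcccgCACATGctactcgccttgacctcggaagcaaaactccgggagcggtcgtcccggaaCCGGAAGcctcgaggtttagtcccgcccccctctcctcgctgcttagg
MRPL36, chr5:1799808-1799937, minus strand: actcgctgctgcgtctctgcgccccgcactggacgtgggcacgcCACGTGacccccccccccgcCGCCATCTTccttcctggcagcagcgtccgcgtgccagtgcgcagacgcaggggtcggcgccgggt
MRPL41, chr9:137551779-137551908, plus strand: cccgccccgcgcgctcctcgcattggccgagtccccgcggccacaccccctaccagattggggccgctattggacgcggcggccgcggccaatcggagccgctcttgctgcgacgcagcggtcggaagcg
Among the 4 with the highest differences, MRPL46 carries the YY1 letters and MRPS25, MRPL39 and MRPL44 carry none of these motifs in the window. Among the 4 with the lowest, MRPS16 and MRPL43 carry the ETS letters, MRPL36 the YY1 letters, and MRPL43 and MRPL36 an E-box. MRPL41 carries none in the window.

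ETS factors and YY1 are transcription factors whose sites are common in promoters of housekeeping genes. Promoter entries were found for 67 of the 75 protein-coding members, with 83 promoters in all, each from 250 bases before to 50 after the start. No entry was found for MRPL2, MRPL10, MRPL13, MRPL15, MRPL21, MRPL23, MRPL35 and MRPS28. The ETS letters were present in 32 of the 83 promoters (38.6%), against 10.3% of 35116 promoters in the table and 18.8% of the 9507 promoters of genes with a mean of at least 6. The YY1 letters were present in 12 (14.5%), against 1.75% of all promoters and 4.08% of those of the genes with a mean of at least 6. The NRF1 letters GCATGCGC were present in 6 (7.23%), against 3.05% and 5.29%. The Sp1 letters GGGCGG were in 59.0% of the member promoters, against 45.0% of all promoters and 68.7% of those of genes with a mean of at least 6. The E-box letters CACGTG were in 10.8%, against 7.26% and 10.3%, and CATGTG in 4.82%, against 11.1% and 6.86%. Both strands were searched, the ETS and YY1 letters can share their AAG, and a shared stretch then counts for both. The median GC content of the member promoters was 60.3%, against 58.7% for all promoters and 65.3% for those of genes with a mean of at least 6.

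The members' differences were then listed by motif, without a test. Of the 29 members with the ETS letters, 17 were higher in IGR37 (median difference 0.04), against 30 of the 38 without them (0.39). Of the 6 with the NRF1 letters, 3 were higher (−0.06), against 44 of the 61 without (0.25). Of the 12 with the YY1 letters, 9 were higher (0.33), against 38 of the 55 without (0.23). The medians with and without the letters were 0.23 and 0.37 for Sp1, 0.10 and 0.24 for CACGTG, and 0.51 (4 members) and 0.24 for CATGTG. For every motif the range of the members with it overlapped that of the members without it.

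Across the whole family most members had a somewhat higher level in IGR37. The median level of the 77 genes was 8.86 in IGR37 and 8.54 in IGR39, and the median of the 77 differences was 0.25, against 0.00 for all 19775 genes and 0.07 for the 7751 genes with a mean of at least 6. This direction turned under 1 scaling: after centring on the array medians of 12 housekeeping genes, the members' median was −0.42 and that of all genes was −0.67. That centring lowers every difference given here by 0.67. Values between 0 and 0.67, the medians of the ribosomal and mitochondrial gene lists included, change sign under it. Their distance from the median of all genes stays the same. The array medians of the 12 genes lay between TFRC (11.65 in IGR37, 10.25 in IGR39) and YWHAZ (11.51 in IGR37, 11.56 in IGR39). Centring on the median of the 12 genes' own differences (−0.02), chosen after seeing the data, gave a members' median of 0.27. The poly-A spike-ins had a median difference of 0.25, as the members did without rescaling. Their part in the members' median was not tested. Of the 77 genes, 55 (71.4%) were higher in IGR37, against 50.3% of all genes and 55% of genes with a mean of at least 6. The differences ran from −0.63 to 1.21.

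At least 2-fold higher levels in IGR37 were found for 4 members (5.19%), which is near the 5.8% of all genes, against 9.83% of genes with a mean of at least 6. At least 2-fold lower levels were found for 0 members, against 4.85% and 7.66%. Moderate differences leaned one way: 25 members (32.5%) were higher by at least 0.5, against 25.1% of genes with a mean of at least 6, and 2 (2.60%) were lower by at least 0.5, against 17.9%. The levels of the 75 protein-coding members in the 2 lines correlated across genes with Pearson's r = 0.89 and Spearman's rho = 0.85, as a description, since genes are not replicates and probe affinity is shared between the arrays. The differences had little relation to the mean level (r = −0.14 and rho = −0.12 over 75 genes).

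**Figure D1:**
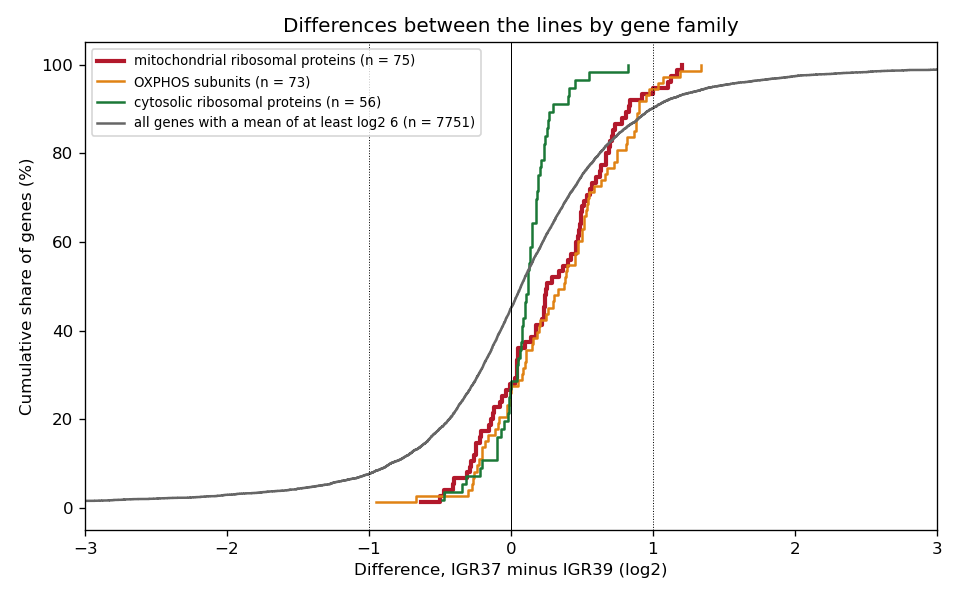
Cumulative share of genes (%) against the difference IGR37 minus IGR39 (log2), for the 75 protein-coding mitochondrial ribosomal protein genes, 73 OXPHOS subunits, 56 cytosolic ribosomal proteins and the 7751 genes with a mean of at least 6. Dotted lines mark 2-fold, the axis ends at 3 on each side, and the member curve lies to the right of the curve of the 7751 genes up to about 0.7.

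The small subunit genes had a median difference of 0.40 and the large subunit genes 0.24, and the sets overlapped over nearly their whole range. Without the less specific probe sets (suffixes _x_at and _s_at, which can match more than 1 transcript), the medians were 0.38 and 0.047. Of the 27 MRPS genes, 21 were higher in IGR37, 1 by at least 2-fold. Of the 48 MRPL genes, 33 were higher, 3 by at least 2-fold. MRPS30 and MRPS18A belong to the large subunit by their place in the human ribosome, and moving them left the medians at 0.40 and 0.24. The 45 subunits with bacterial counterparts had a median of 0.34, with 35 higher in IGR37 and 0 past 2-fold. The 30 subunits found only in mitochondria had a median of 0.21, with 19 higher in IGR37. All 4 genes past 2-fold were among these 30 (13.3%), against 5.8% of all genes and 9.83% of genes with a mean of at least 6. All 4 rest on probe sets of the less specific type, as do 45 of the 77 members and 5820 of all 19775 genes. At a limit of 0.5 the order was reversed, with 18 of the 45 (40%) and 7 of the 30 (23.3%) higher in IGR37. The share at that limit was 25.1% of genes with a mean of at least 6.

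**Figure D2:**
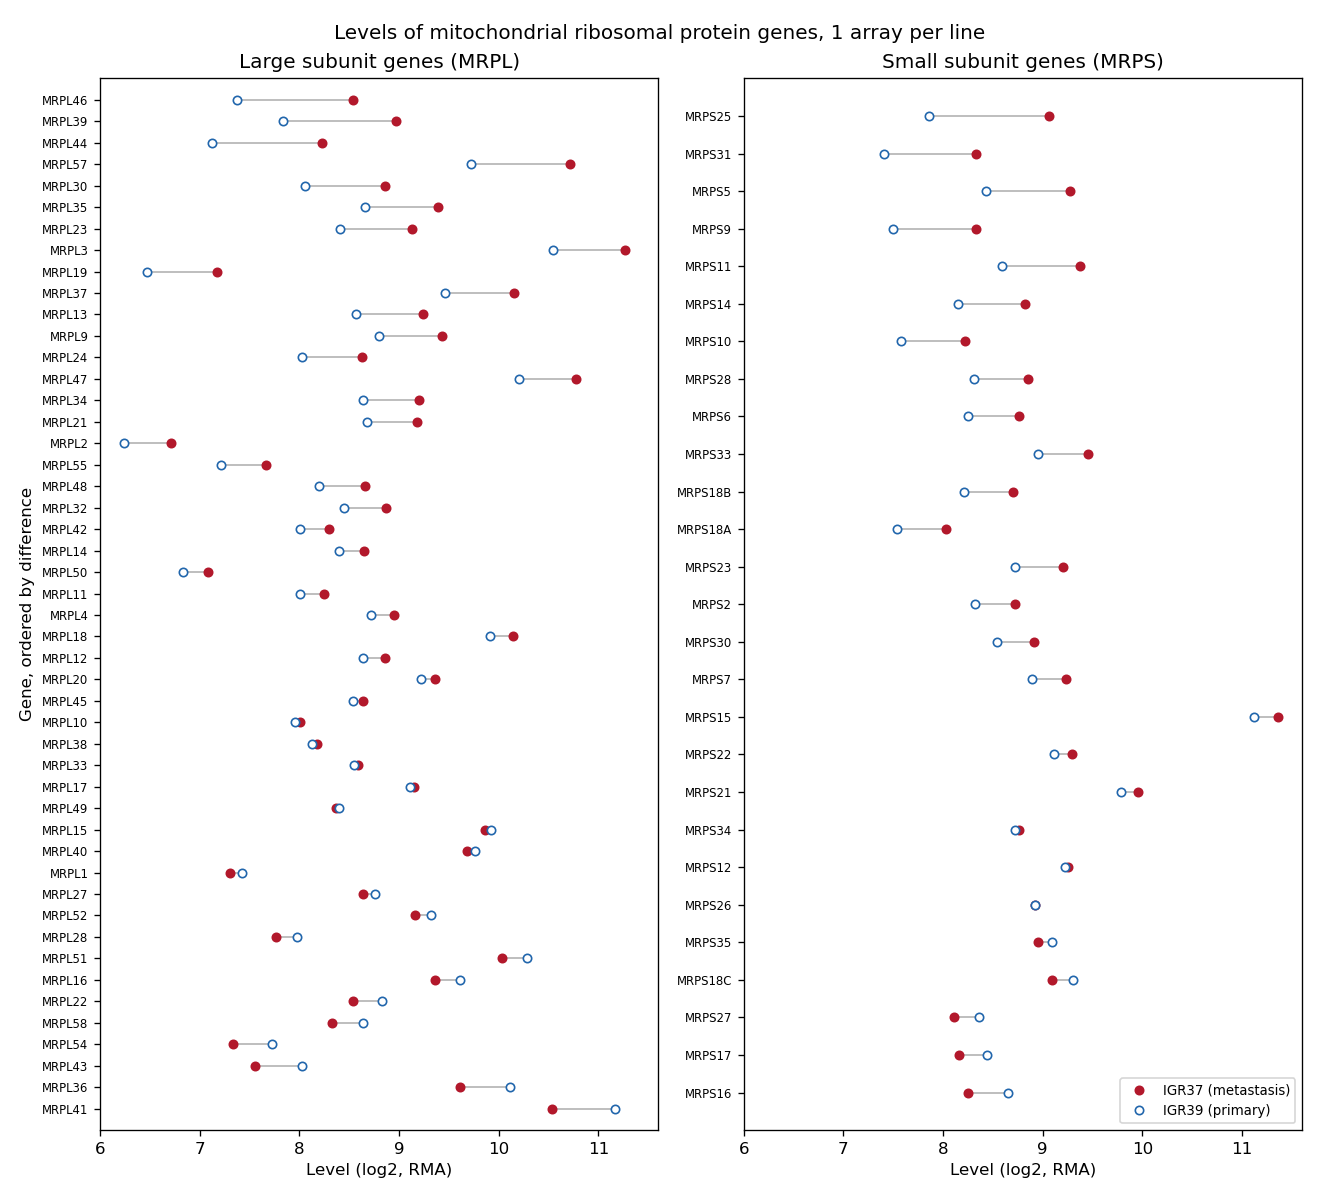
Levels (log2, RMA) of the 48 MRPL genes (left) and 27 MRPS genes (right) in IGR37 (filled red) and IGR39 (open blue), ordered by difference, with 1 array per line. The widest gap to the right is that of MRPS25 (9.06 in IGR37, 7.86 in IGR39), and the widest to the left that of MRPL41 (10.53 in IGR37, 11.16 in IGR39).

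MRPS25, a small subunit protein of mitochondrial ribosomes, had the widest difference. Its level was 9.06 in IGR37 and 7.86 in IGR39, a difference of 1.21 or 2.31-fold. MRPS31, a protein of the head of the small subunit, had 8.33 in IGR37 and 7.41 in IGR39 (0.92). Its second probe set above 6 gave 1.10, so both placed the gene higher in IGR37.

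Next came small subunit proteins with bacterial counterparts. MRPS5, whose bacterial counterpart lines the entry path of the messenger RNA, had 9.27 in IGR37 and 8.43 in IGR39 (0.84). MRPS9, a head protein that reaches toward the decoding centre, had 8.33 in IGR37 and 7.50 in IGR39 (0.83). Further subunit genes with this direction were MRPS11 (9.37 in IGR37, 8.59 in IGR39), a platform protein, and MRPS14 (8.82 in IGR37, 8.15 in IGR39), a head protein. MRPS10, also of the head, had 8.22 in IGR37 and 7.58 in IGR39.

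DAP3, the small subunit protein also named MRPS29, binds GTP and was first described in cell death. Its symbol keeps it out of the rule, and its level was 9.32 in IGR37 and 8.50 in IGR39 (0.82). PTCD3, another subunit with a symbol of its own, had 8.55 in IGR37 and 8.03 in IGR39 (0.52). CHCHD1 ran the other way, with 8.33 in IGR37 and 8.78 in IGR39 (−0.45). GADD45GIP1, which belongs to the large subunit, had 8.44 in IGR37 and 8.37 in IGR39.

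Among small subunit genes that were lower in IGR37, MRPS16 was the lowest. It has a bacterial counterpart, and its level was 8.25 in IGR37 and 8.65 in IGR39 (−0.40). Its second probe set had 7.39 in IGR37 and 7.28 in IGR39 (0.11), so the direction of MRPS16 was not the same in its probe sets. MRPS17 had 8.16 in IGR37 and 8.44 in IGR39 (−0.28).

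The 3 MRPS18 paralogs occupy different places in human mitochondrial ribosomes, with MRPS18A in the large subunit. MRPS18A had 8.03 in IGR37 and 7.54 in IGR39 (0.49). MRPS18B had 8.70 in IGR37 and 8.20 in IGR39 (0.49). MRPS18C differed in sign, with 9.09 in IGR37 and 9.30 in IGR39 (−0.21).

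Of the large subunit, 3 genes lay past 2-fold. MRPL46, a protein of the central protuberance, had 8.54 in IGR37 and 7.38 in IGR39 (1.17, 2.25-fold). MRPL39, placed near the exit of the peptide tunnel, had 8.97 in IGR37 and 7.84 in IGR39 (1.13, 2.19-fold). MRPL44, a protein with a ribonuclease III-like fold, had 8.23 in IGR37 and 7.12 in IGR39 (1.11, 2.15-fold). Its second, dimmer probe set gave 1.01.

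MRPL57, also known as MRP63, lay just under the limit, with 10.72 in IGR37 and 9.72 in IGR39 (0.998). Its 4 probe sets gave 0.72 to 1.17, all higher in IGR37. MRPL30 had 8.86 in IGR37 and 8.05 in IGR39 (0.81). MRPL3, whose bacterial counterpart reaches toward the peptidyl transferase centre, had 11.26 in IGR37 and 10.55 in IGR39 (0.72). MRPL35, MRPL23, MRPL19, MRPL37 and MRPL13 followed with differences between 0.67 and 0.73.

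MRPL41 had the lowest difference of all members. It is a large subunit protein that has also been described in apoptosis, and its level was 10.53 in IGR37 and 11.16 in IGR39 (−0.63). All 5 probe sets of MRPL41 gave lower values in IGR37, by −0.63 to −0.13. MRPL36, the counterpart of a small zinc-binding bacterial protein, had 9.62 in IGR37 and 10.12 in IGR39 (−0.50). MRPL43 had 7.56 in IGR37 and 8.03 in IGR39 (−0.47), and MRPL54 had 7.33 in IGR37 and 7.73 in IGR39 (−0.40). MRPL58, which keeps the peptidyl-tRNA hydrolase activity of a release factor and rescues stalled ribosomes, had 8.33 in IGR37 and 8.64 in IGR39 (−0.31). MRPL22, whose bacterial counterpart lines the peptide tunnel, had 8.54 in IGR37 and 8.83 in IGR39 (−0.29).

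MRPL12, a protein of the stalk that also binds the mitochondrial RNA polymerase, had 8.86 in IGR37 and 8.64 in IGR39 (0.22). Its second probe set gave −0.08. The 3 stalk genes MRPL10, MRPL11 and MRPL12 stayed close together, at 0.05 to 0.24. MRPS30, first described as a programmed cell death protein, had 8.91 in IGR37 and 8.54 in IGR39 (0.37).

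Grouped by region of the ribosome, with lists written after the values had been seen, 7 of 8 genes near the tunnel exit were higher in IGR37 (median 0.59), MRPL39 and MRPL44 among them. Of 7 central protuberance genes, 5 were higher (median 0.23). Of 7 small subunit head genes, 6 were higher (median 0.64), and of 4 platform genes, 3 (median 0.34). Of all 75 protein-coding members 72% were higher, and of genes with a mean of at least 6, 55%. The lists hold only part of the subunits. MRPL41, MRPL36, MRPL43, MRPS16, MRPL54 and MRPS17, among the lowest, are in none of them, nor are MRPS25 and MRPL57, among the highest. These counts describe the lists, were not tested and cannot set a region apart from the family.

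Several probe sets of a gene gave a check within each array. There were 20 members with at least 2 probe sets at a mean of at least 6, and in 17 (85%) all of them had the same sign, against 80.1% of 2722 such genes overall. The pooled SD between probe sets of a gene was 0.16 for the members and 0.34 for all genes. Signs were mixed for MRPS16, MRPL12 and MRPL52, with a largest range of 0.51 in MRPS16. The 65 probe sets not used as gene values gave a higher level in IGR37 in 53 cases, and in 23 of the 29 with a mean of at least 6. This spread comes from probes on the same 2 arrays and says nothing about variation between cultures.

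**Figure D3:**
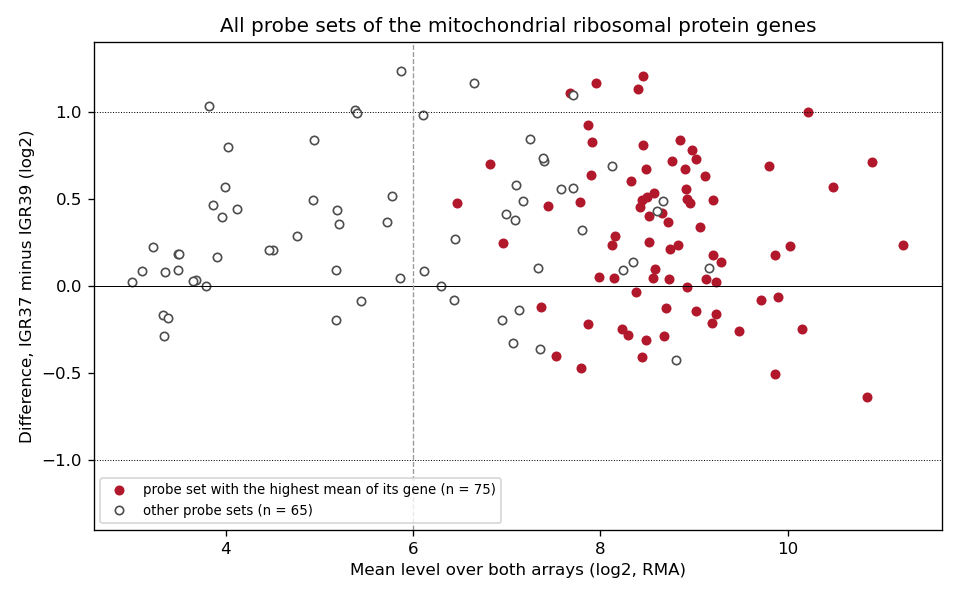
Difference IGR37 minus IGR39 (log2) against the mean level over both arrays (log2, RMA) for all probe sets of the 75 protein-coding members, filled for the probe set that gives the gene value and open for the others. The dashed line marks a mean of 6 and dotted lines mark 2-fold; more points lie above 0 than below it for both kinds.

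The 4 genes past 2-fold rest on probe sets of that less specific type. Without it 0 of the 46 members with a value lay past 2-fold higher, against 4.85% of all genes with one. This count could not include MRPS25, MRPL46 and MRPL44, which have no other type of probe set. MRPL39 kept a value only from a probe set near background (3.01 in IGR37, 2.99 in IGR39). The count therefore cannot test the 4 genes. MRPL46 has a single probe set. The other probe sets of MRPS25 (differences 0.40 and 0.47), MRPL39 (0.02) and MRPL44 (1.01) all had means under 6. With the mean of all probe sets of a gene as its value, MRPS25 had a difference of 0.69 and MRPL39 0.58, and MRPL44 (1.06) and MRPL46 (1.17) were the 2 genes left past 2-fold.

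The members' differences mostly followed those of their chromosomes, with exceptions given below. Members are spread over 21 chromosomes, and each chromosome was summarised by the median difference of its other genes with a mean of at least 6. On the 8 chromosomes with a median above 0.2 (1, 2, 3, 6, 7, 13, 15 and 21), 33 of 34 members were higher in IGR37, with a median of 0.62. Of the other genes of these chromosomes, 66.1% (chromosome 2) to 80.6% (chromosome 13) were higher too. All 4 genes past 2-fold lie there. On the 9 chromosomes with a median between −0.2 and 0.2, 18 of 31 members were higher, with a median of 0.04. The share of other genes that were higher there was 37.2% (chromosome 14) to 63.0% (chromosome 8). On the 4 chromosomes with a median below −0.2 (5, 9, 10 and 20), 3 of 10 members were higher, with a median of −0.27. Here the share of other genes that were higher was 21.8% (chromosome 10) to 24.4% (chromosome 20). Over the 18 chromosomes with at least 2 members, the medians of the members and of the other genes correlated with r = 0.83 and rho = 0.81, as a description, since genes of a chromosome are measured on the same 2 arrays. DNA copy number was not measured in these data, and its part was not tested.

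**Figure D4:**
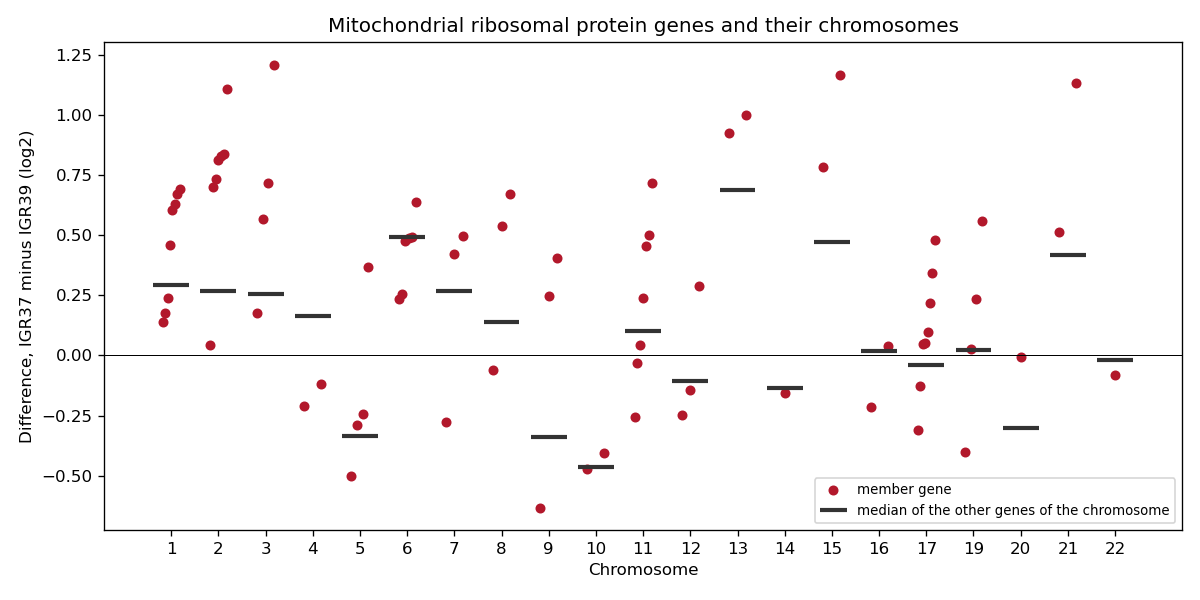
Difference IGR37 minus IGR39 (log2) of each protein-coding member (red points) by chromosome, with the median difference of the chromosome's other genes that have a mean of at least 6 (black bars). Members and bars are both high on chromosomes 13 (medians 0.96 and 0.69) and 15 (0.97 and 0.47), and both low on chromosomes 10 (−0.44 and −0.46) and 5 (−0.27 and −0.33).

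Chromosome 2 carries 7 members, all higher in IGR37, at 0.04 (MRPL33) to 1.11 (MRPL44). The members' median was 0.81, against 0.27 for the other genes of the chromosome, of which 66.1% were higher in IGR37. On chromosome 13, MRPL57 and MRPS31 had a median of 0.96, against 0.69 for the other genes. All 8 members on chromosome 1 (median 0.53) and all 6 on chromosome 6 (median 0.48) were higher in IGR37. The other genes of these chromosomes had medians of 0.29 and 0.49, and 68.7% and 75% of them were higher in IGR37. MRPL43 and MRPS16, the members on chromosome 10, had a median of −0.44, against −0.46 for its other genes. Chromosome 9 ran apart, with a members' median of 0.25, against −0.34, and it held both MRPS2 (0.40) and MRPL41 (−0.63). On chromosome 4 the members' median was −0.16, against 0.16 for the other genes. The signs also differed on chromosomes 16 (−0.09, against 0.02) and 17 (0.08, against −0.04).

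After each member's chromosome median was subtracted, the median of the 75 members was 0.14. Of these, 48 (64%) lay above their chromosome's median, against 49.9% of other genes. The 49.9% follows from the method, since the other genes themselves set the chromosome medians. The share above the chromosome median by at least 0.5 was 18.7% for the members, against 18.2% for other genes. On a finer scale, the difference of a member was set beside the median of its 10 nearest measured genes (r = 0.55 and rho = 0.57 over 75 members, as a description). Where that median was above 0, 41 of 48 members were higher in IGR37 (median 0.49). Where it was at or below 0, 13 of 27 were higher (median −0.01). Of all genes with a mean of at least 6, 55% were higher. The same split by neighbours was not made for genes outside the family. MRPL46, with 1.17 beside a neighbours' median of 0.83, and MRPL41, with −0.63 beside −0.43, lay on the side of their neighbours. MRPL44 had 1.11, and the median of its neighbours was −0.59.

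A number of members share a start region with a gene on the other strand. A RefSeq start of another gene within 1000 bases in the divergent direction was found for 26 of the 67 members with a promoter entry. They form 26 distinct pairs. The share of all genes with such a partner was not computed, so the count cannot be called particular to this family. MRPL46 and MRPS11, with starts 320 bases apart on chromosome 15, form a pair of members, and both were higher in IGR37 (1.17 and 0.78). MRPL30 and MITD1, 126 bases apart, had differences of 0.81 and 0.48. MRPL57 had a difference of 0.998, and its partner SKA3, 106 bases away, had 6.91 in IGR37 and 6.85 in IGR39 (0.06). MRPS18B (0.49) and PPP1R10 (−0.22) had opposite signs. Of the 13 distinct pairs in which both genes had a mean of at least 6, 6 had the same sign and 7 had opposite signs. Divergent pairs outside the family were not counted.

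Assembly of the mitochondrial ribosome needs GTPases, helicases, RNA-modifying enzymes and proteases, which are not part of the finished particle. The list of 30 assembly and RNA-handling factors had a median difference of 0.28, or 0.56 over those with a mean of at least 6, with 21 genes higher in IGR37. At least 2-fold higher levels were found for 5 of the 30 (16.7%) and lower ones for 0, against 5.8% and 4.85% of all genes and 9.83% and 7.66% of genes with a mean of at least 6. AFG3L2, a subunit of the protease of the inner membrane that matures MRPL32, had 9.75 in IGR37 and 7.78 in IGR39 (1.98). MRPL32 itself had 8.87 in IGR37 and 8.45 in IGR39 (0.42). FASTKD2, which binds the large ribosomal RNA, had 8.12 in IGR37 and 6.77 in IGR39 (1.34). NGRN, a factor for the same RNA, had 10.10 in IGR37 and 8.85 in IGR39 (1.26). LRPPRC, which stabilises mitochondrial messenger RNAs, had 10.26 in IGR37 and 9.11 in IGR39 (1.15), and GRSF1, of the RNA granules, had 9.63 in IGR37 and 8.56 in IGR39 (1.07). ERAL1, a chaperone of the small ribosomal RNA, had the lowest difference, with 6.94 in IGR37 and 7.57 in IGR39 (−0.63).

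Of 15 measured translation factors, 12 were higher in IGR37 (median 0.29, or 0.083 with the mean of all probe sets of a gene). Of the 15, 2 (13.3%) were at least 2-fold higher and 0 lower, against 5.8% and 4.85% of all genes and 9.83% and 7.66% of genes with a mean of at least 6. MTFMT, which formylates the initiator methionyl-tRNA, had 7.88 in IGR37 and 6.61 in IGR39 (1.27). GFM1, the elongation factor for translocation, had 9.22 in IGR37 and 8.22 in IGR39 (1.01). MRRF, the ribosome recycling factor, had 6.69 in IGR37 and 7.56 in IGR39, the lowest difference (−0.87).

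The enzymes that charge mitochondrial tRNAs leaned the same way. Unlike the members, the genes of this and the other lists were not set beside their chromosomes. Of 18 measured genes, 14 were higher in IGR37. The median was 0.56, but 0.34 over genes with a mean of at least 6 and 0.34 without the less specific probe sets. Of the 18, 5 (27.8%) were at least 2-fold higher and 0 lower, against 5.8% and 4.85% of all genes and 9.83% and 7.66% of genes with a mean of at least 6. NARS2, the asparaginyl-tRNA synthetase, had 9.15 in IGR37 and 6.85 in IGR39 (2.29). MARS2 had 6.42 in IGR37 and 5.18 in IGR39, and WARS2 had 5.99 in IGR37 and 4.82 in IGR39, and both genes have a mean under 6. QRSL1, part of the glutaminyl-tRNA amidotransferase, had 7.60 in IGR37 and 6.41 in IGR39, and VARS2 had 7.55 in IGR37 and 6.52 in IGR39.

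**Figure D5:**
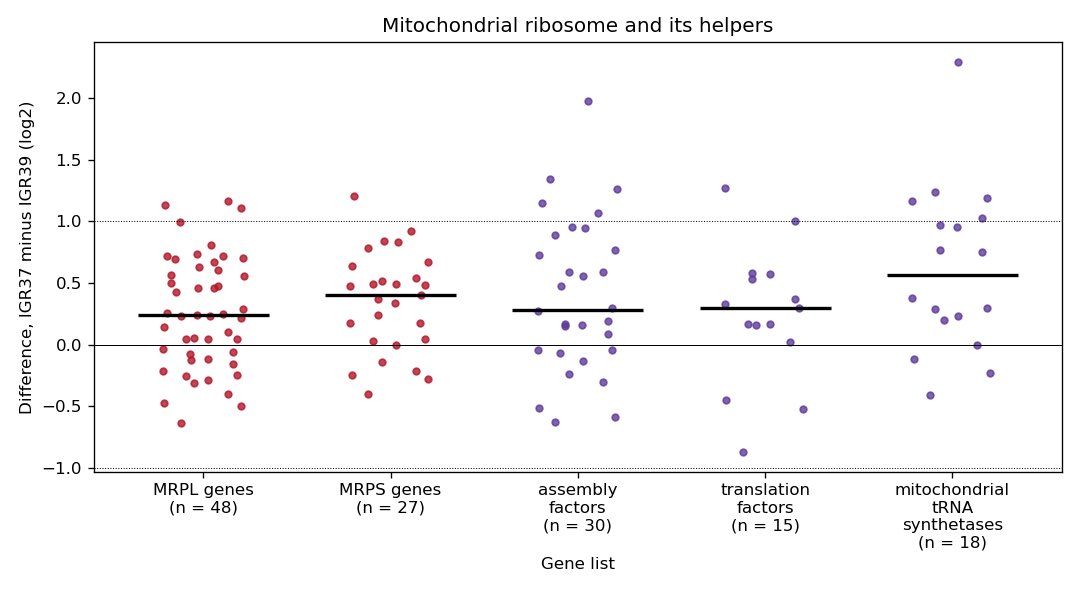
Difference IGR37 minus IGR39 (log2) of each gene (points) and the median (black bars) for the 48 MRPL genes, 27 MRPS genes, 30 assembly factors, 15 translation factors and 18 mitochondrial tRNA synthetases and related enzymes. The medians are 0.24, 0.40, 0.28, 0.29 and 0.56, and the highest point is NARS2 at 2.29.

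The nuclear-encoded subunits of oxidative phosphorylation (OXPHOS), which are joined by the products of the mitochondrial ribosome, had a median difference of 0.37 over 73 genes, or 0.20 with the mean of all probe sets of a gene. Of these, 54 were higher in IGR37. Those at least 2-fold higher were 4 (5.48%), near the 5.8% of all genes and under the 9.83% of genes with a mean of at least 6, and 0 were at least 2-fold lower, against 4.85% and 7.66%. NDUFV2 of complex I had 10.46 in IGR37 and 9.12 in IGR39 (1.34), ATP5PF had 11.71 in IGR37 and 10.52 in IGR39 (1.19), ATP5F1A had 12.22 in IGR37 and 11.14 in IGR39 (1.08), and COX7A2 had 11.44 in IGR37 and 10.40 in IGR39 (1.04). NDUFS4, also of complex I, had the lowest difference, with 8.50 in IGR37 and 9.45 in IGR39 (−0.95). The 56 cytosolic ribosomal protein genes had a median of 0.12, with 41 higher in IGR37, 2 by at least 0.5 and 0 past 2-fold in either direction. Their differences lay between −0.48 and 0.83, whereas those of the mitochondrial ribosomal protein genes reached from −0.63 to 1.21. The cytosolic median was −0.04 after scaling with a smooth curve along the level and −0.0094 without the less specific probe sets. After that scaling, the median of the mitochondrial ribosomal protein genes was 0.20, and without those probe sets it was also 0.20.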

How the data were processed

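The authors deposited 1 log2 level for each probe set. The submitters' processing notes name RMA and the affy package. Neither versions nor the set of arrays normalised together is stated in the sources used here. RMA subtracts a modelled background and makes the distributions of arrays alike, which removes overall differences in brightness and compresses differences at low levels.

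Gene symbols come from the platform annotation and were brought up to date by gene identifier with RefSeq (GRCh38.p14), which matched all 77 members. The 62 control probe sets were kept out of gene values. Differences, medians, counts past 2-fold (1 on the log2 scale) and past 0.5, and comparisons with chromosome medians were computed with Python 3.11.15, pandas 2.3.3 and numpy 2.4.6. The calls past 2-fold were tested on simulated data with a shift planted in randomly chosen genes. All probe sets of such a gene had the same shift, so the choice of probe set was not tested. No shift was planted in the members as a set, and their median was checked only for staying small. The counts past 0.5 and the comparisons with chromosome medians were not tested in this way. Promoter sequences are RefSeq's. With 1 array per line no p-value was computed, and precision is limited by the number of arrays.

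The members and lists were chosen with earlier results of these data known. Every member could be named. Full values were given for members at least 2-fold apart, the 8 highest and 8 lowest differences, members whose probe sets differed in direction by over 0.5, the MRPS18 paralogs, MRPL12, MRPL41, MRPL58, MRPS30 and DAP3. Outside this rule, full values were also given for the antisense RNA, the pseudogene, and MRPL30, MRPL3, MRPL32, MRPS10, MRPS11 and MRPS14. These last genes were all higher in IGR37, and no protein-coding member lower in IGR37 was added in this way. The 5 highest and lowest levels were left out, since levels of different probes are not comparable. Of the other lists, genes at least 2-fold apart or the highest and lowest were named. The alternatives were other level minima, the mean of all probe sets, leaving out less specific probe sets, and scaling by array medians, by 12 housekeeping genes and by lowess (span 0.3, statsmodels 0.14.6). Breast cell lines that the series' design text mentions were not analysed here.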

Additional observations from a re-analysis of the deposited data

Results flagged for a closer look

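Probe sets with several symbols, kept out of every gene value above, gave signal well above the controls that were not spiked in (highest level 3.28). The probe set shared by URGCP-MRPS24 and MRPS24 had a level of 11.13 in IGR37 and 11.26 in IGR39. The probe set shared by MRPL53 and CCDC142 had 9.73 in IGR37 and 9.17 in IGR39. The probe set shared by MRPL51 and SPTLC1 had 7.87 in IGR37 and 8.0 in IGR39. Which of the named genes gave the signal was not tested.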

How the results depend on the processing

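The members' median difference of 0.25 was 0.20 to 0.28 under level minima of 5, 6 and 7, the mean of all probe sets, leaving out less specific probe sets, array-median scaling and lowess scaling. Centring on the array medians of 12 housekeeping genes, which lay between the levels of TFRC and YWHAZ, moved every difference by 0.67. Under it the medians were −0.42 for the members, −0.27 for MRPS genes, −0.44 for MRPL genes, −0.67 for all genes, −0.39 for assembly factors, −0.38 for translation factors, −0.11 for tRNA synthetases, −0.30 for OXPHOS subunits and −0.56 for cytosolic ribosomal proteins. It left 0 members past 2-fold higher and 5 past 2-fold lower in IGR37, and 39 of 75 members changed sign. The median of the same 12 genes' own differences was −0.02, and centring on it, chosen after seeing the data, gave a members' median of 0.27 with 5 genes at least 2-fold higher. Lowess scaling turned cytosolic ribosomal proteins to −0.043. With the mean of all probe sets, 2 members were at least 2-fold higher, and translation factors (0.083) and OXPHOS subunits (0.20) had lower medians. Without less specific probe sets 46 members remained, with a median of 0.047 for MRPL genes, 0.34 for tRNA synthetases, −0.0094 for cytosolic ribosomal proteins and 0 members past 2-fold higher. MRPS25, MRPL44 and MRPL46 were not among the 46, and MRPL39 kept only a probe set near background. At a level minimum of 6 or 7 the assembly factors had 0.56 or 0.57 and the tRNA synthetases 0.34 or 0.77. A limit of 0.5, also chosen after seeing the data, gave 25 higher and 2 lower members. No paired analysis was possible because each line has 1 array.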
